A study of Mus musculus with 18 samples.

Results

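Complement is a cascade of plasma and tissue proteins that tags cells and microbes for removal and attracts white blood cells. The 9 genes described here encode components of the cascade (C3, C4b, C2 and Cfb), its positive regulator properdin (Cfp), the inhibitors Serping1 and Cd55, and the receptors C3ar1 and C5ar1. They were chosen by symbol, with earlier results of these data known, from the expression table of ultraviolet-driven skin tumours in mice. All 9 were found among 14521 named genes.

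RNA was sequenced from 6 female littermates of SKH1-E mice, an outbred hairless strain that is highly prone to skin tumours under ultraviolet light and that was irradiated from young adult age over months with solar simulators and sampled after a pause without irradiation. Each mouse gave chronically irradiated skin without a lesion (CHR), a precancerous tumour of the epidermis (papilloma, PAP) and a malignant one (cutaneous squamous cell carcinoma, SCC). There were thus 18 libraries, n = 6 in each group. By the histology of the study, CHR was not ordinary skin but showed sun damage, with elastosis, fibrosis and chronic inflammation. The study estimated that tumour cells made up most of each tumour sample. All tumours were of low to middle grade, the body site was not given in the sources used here, no unirradiated skin was analysed here, and the strain and irradiation were shared by all groups. The libraries held 15.4 to 20.97 M reads (median 18.9 M). Levels are normalised reads, that is, reads recovered from the deposited scores and divided by the size factor of the library, and n is the number of mice, so that p-values measure the spread between mice. The samples are bulk tissue, in which fewer cells of a type and less RNA per cell cannot be told apart.

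The cascade can start in 3 ways that meet at C3. In the classical pathway, C1q binds antibody or damaged cells, and the associated proteases cut C4 and C2, which together form an enzyme that cleaves C3. In the alternative pathway, a piece of C3 joins factor B (Cfb), properdin stabilises the resulting enzyme, and more C3 is cleaved, while the lectin pathway begins with binding of sugars. The small fragments C3a and C5a act on the receptors C3ar1 and C5ar1, which are best known from myeloid cells. Serping1 blocks the proteases that open the classical and lectin pathways, and Cd55 takes apart the enzymes that cleave C3. Much of the circulating protein is made in the liver, but fibroblasts, macrophages and keratinocytes of the skin also make components.

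All 9 genes were lower in papilloma than in irradiated skin of the same animal. In carcinoma 7 of them were higher again than in papilloma, with means that stayed below those of irradiated skin. In limma, with the mouse as a block and Benjamini-Hochberg adjustment over all 14521 genes (threshold 0.05), 9 of 9 genes fell in PAP vs CHR, where 29.3% of all genes tested fell. In SCC vs PAP, 7 of 9 rose, against 8.75% of all genes. In SCC vs CHR, 9 of 9 were lower, against 22.7% of all genes. The median change of the 9 genes was -2.37, 1.21 and -1.29 on the log2(value + 1) scale in PAP vs CHR, SCC vs PAP and SCC vs CHR, where the medians of all genes tested were 0.00, -0.02 and -0.02. The 3 comparisons share their libraries, so their results are not independent of each other. Because the genes were chosen with earlier results of these data known, the shares of all genes are a description and not a test.

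**Figure D1:**
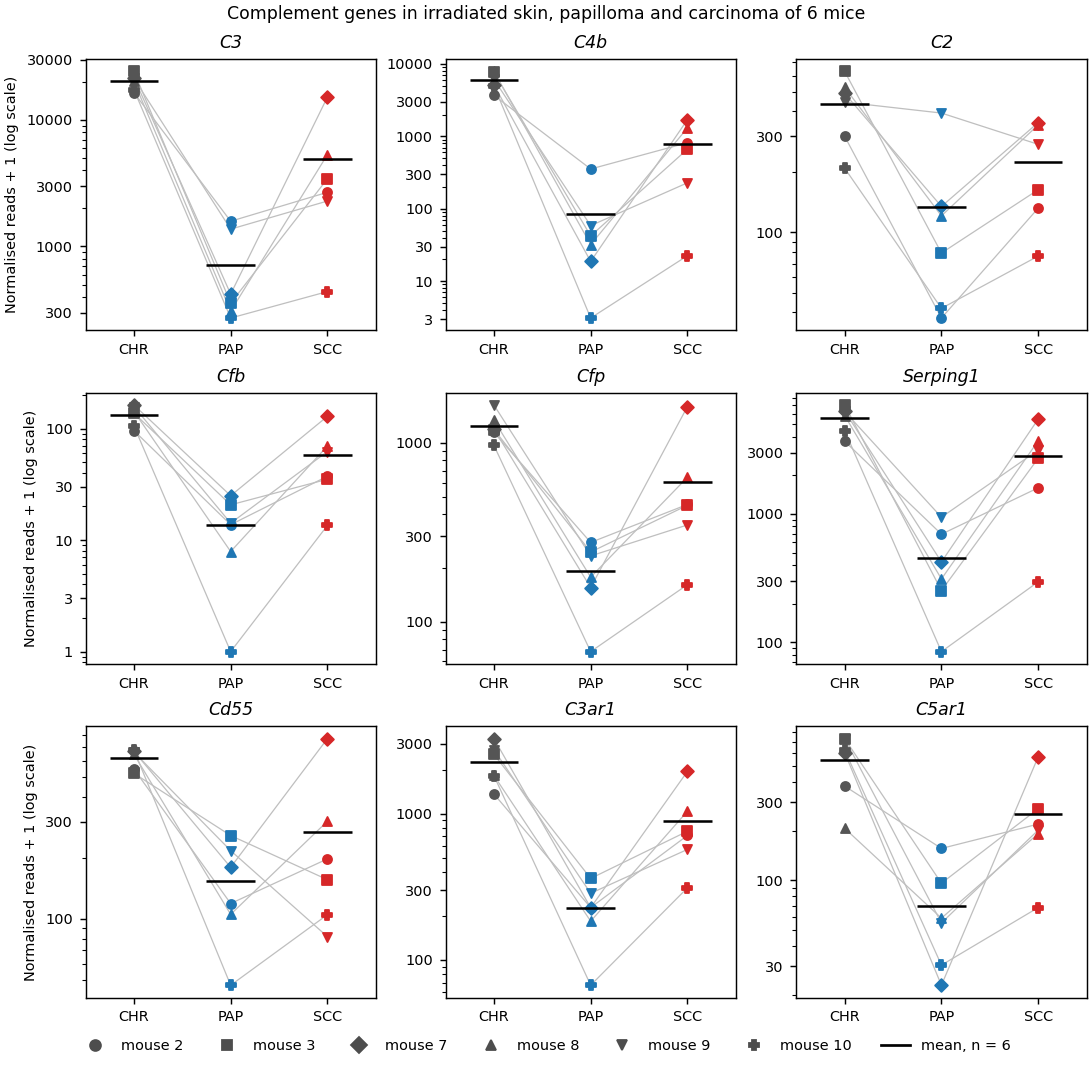
Normalised reads (+ 1, log axis) of the 9 complement genes in irradiated skin (CHR), papilloma (PAP) and carcinoma (SCC). Each symbol is a mouse, grey lines join samples of the same mouse and black bars are means (n = 6). Papilloma is the lowest of the 3 tissues in most mice, mouse 7 has the highest carcinoma value in all 9 panels, and the lone point at the bottom of the Cfb panel is a papilloma with 0 reads.

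The order PAP below SCC below CHR was seen in 49 of 54 sets of 1 gene in 1 mouse, and over all genes in 25.2% of such sets. It held in 6 of 6 mice for C3, C4b, Cfb, Serping1, C3ar1 and C5ar1. C2 and Cfp each kept it in 5 mice and Cd55 in 3.

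C3, on which all 3 pathways meet, was among the most abundant transcripts of irradiated skin. Its mean there was 3927 ± 558 normalised reads per kb of exon (SD, n = 6), the level ranked 100 of 14427 genes with a known length. In papilloma it ranked 6165, and in carcinoma 669. Across libraries, C3 ranged from 16465 to 24219 normalised reads in CHR (median 20755), from 271 to 1582 in PAP (median 387) and from 439 to 15177 in SCC (median 3054). No PAP or SCC library reached the lowest CHR library, while the carcinoma of mouse 7 alone came near it. The mean was 28.2-fold lower in PAP than in CHR and 6.81-fold higher in SCC than in PAP, and the change in limma was -4.98 ± 0.55 (SE, adjusted p = 1.09e-05), 2.30 ± 0.55 (adjusted p = 0.023) and, for SCC vs CHR, -2.68 ± 0.55 (adjusted p = 0.00237), all on the log2(value + 1) scale. Without the carcinoma of mouse 7, the mean in SCC was 3.95-fold higher than in PAP and 7.14-fold lower than in CHR.

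C3 lies on the minus strand of chromosome 17 at 57203970 to 57228136 (GRCm38, GENCODE M21). The RefSeq promoter table for GRCm38.p6 held 5 of the 9 genes (C3, C3ar1, C5ar1, Cd55 and Cfp), and because these 5 fell together in papilloma, the 250 bases before their starts were searched on both strands for 4 motifs of inflammatory transcription factors. These were the core of the interferon-stimulated response element, written as GAAA and GAAA with 2 bases between them (in 2.98% of 32851 promoters), TTCNNNGAA for STAT factors (7.02%), GGGA and TTCC with 2 bases between them for NF-kappaB (1.21%) and TTGCNNAA for C/EBP factors (9.56%), where N is any base. The only match was a C/EBP motif in C3, from 45 to 38 bases before the start. The stretch that holds it, at chr17:57228149-57228206 on the minus strand, is shown 5′ to 3′ with the motif in capitals:
C3 promoter: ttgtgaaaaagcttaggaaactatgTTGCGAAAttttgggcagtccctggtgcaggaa
A match of letters is a description and not evidence that a factor binds there.

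C4b, the mouse gene for complement C4, fell further than any other member. Its 6 CHR libraries held 3692 to 7887 normalised reads (median 5634), the PAP libraries 2.10 to 353 (median 36.1) and the SCC libraries 21.5 to 1701 (median 740.4). As with C3, CHR did not overlap with either tumour group, whereas PAP and SCC overlapped. The lowest papilloma, that of mouse 10, had 2 reads. The mean was 70.6-fold lower in PAP than in CHR (adjusted p = 3.92e-06 in limma), and C4b had the 18th lowest change of all genes, -5.69 ± 0.55 (SE) on the log2(value + 1) scale. Without the papilloma of mouse 2, which held 353 where the others held 2.10 to 57.5, the mean was 198-fold lower in PAP than in CHR. In SCC the mean stood at 13.4% of that in CHR, and C4b rose from PAP by 2.38 ± 0.55 (adjusted p = 0.0198) but remained below CHR by -3.31 ± 0.55 (adjusted p = 0.000598), on the same scale.

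Reads of C4b may be shared with its near copy C4a. Of the 76-base windows along the C4b transcript, 23.2% also occur in C4a, which has no row under this symbol, so the counting of those reads is uncertain.

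C3 and C4b, which are homologous, were compared within mice, and the size of their difference depended on the scale. In normalised reads, C4b lost more than C3 from CHR to PAP in each of the 6 mice, and the difference between their log2 changes in normalised reads + 1 was 2.19 ± 1.54 (SD, n = 6), with an exact two-sided sign-flip permutation p = 0.0312 (adjusted p = 0.141 over 9 tests of related genes). With a pseudocount of 10 it was 1.65, and on the log2(value + 1) scale 0.71, both in 5 of 6 mice (exact permutation p = 0.0625). From PAP to SCC, C4b gained more than C3 in 6 of 6 mice on the read scale, with a difference of -1.19 ± 0.59 (exact permutation p = 0.0312, adjusted p = 0.141), against -0.74 with a pseudocount of 10 (6 of 6 mice) and -0.08 on the log2(value + 1) scale (4 of 6 mice, exact permutation p = 0.625). A p of 0.0312 is the smallest that 6 mice allow, so that these differences could not pass the threshold after adjustment unless more of the 9 had reached it.

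C2 and Cfb, neighbouring homologous genes on chromosome 17, encode the proteases of the classical and alternative enzymes. C2 ranged from 207 to 629.7 normalised reads in CHR, from 36.5 to 391 in PAP and from 75.2 to 350.3 in SCC, with medians of 466, 98.8 and 217. It was the only member whose PAP and CHR libraries overlapped, through the papilloma of mouse 9, which held 391 reads on this scale while the other 5 papillomas held 36.5 to 133. C2 fell by 1.47 ± 0.22 on the log2(value + 1) scale in PAP vs CHR (limma adjusted p = 0.000126). In SCC vs PAP its change of 0.65 ± 0.22 did not pass the threshold (adjusted p = 0.0848) but did without mouse 9 (0.86), and SCC was lower than CHR (-0.82 ± 0.22, adjusted p = 0.0112).

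Cfb was the least abundant member, at 46.9 ± 9.63 normalised reads per kb in CHR (SD, n = 6). It held 94.8 to 161 normalised reads in CHR, 0 to 24.0 in PAP and 12.5 to 128 in SCC, with medians of 139, 13.0 and 48.8. The PAP and CHR libraries were far apart, while the SCC libraries spanned the gap between them. The papilloma with 0 reads, from mouse 10, allows a level of up to 3.15 normalised reads (3 reads, counting error only). The mean was 10.4-fold lower in PAP than in CHR and 4.45-fold higher in SCC than in PAP, and limma gave adjusted p = 2.44e-06 and 0.0101 for changes of -1.63 ± 0.15 and 0.82 ± 0.15. The log2(value + 1) scale compresses genes at this level, and in reads the mean within-mouse change was -3.77 ± 1.56 (SD) and 2.27 ± 1.09 on the log2(normalised reads + 1) scale. SCC was lower than CHR in 6 of 6 mice (-0.81 ± 0.15 on the log2(value + 1) scale, adjusted p = 0.000991).

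The changes of C2 and Cfb differed by 1.69 ± 1.91 in PAP vs CHR on the read scale (exact permutation p = 0.125, adjusted p = 0.188), which is within the spread between mice, and by 0.15 on the log2(value + 1) scale. For both genes the annotation leaves the assignment of reads uncertain. C2 shares 42.8% and Cfb 79.5% of its exon sequence with the read-through gene Gm20547, which has no row in the table, and 4.16% of the C2 exons lie opposite to Zbtb12, with the strand setting of the counting not given in the sources used here.

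Cfp encodes properdin, which is made mainly by white blood cells. It held 968 to 1628 normalised reads in CHR (median 1190.4), 67.1 to 277 in PAP (median 205) and 160.3 to 1596 in SCC (median 449.6). All papillomas were below all CHR libraries, and the carcinoma of mouse 7 was the only one above the CHR sample of its own mouse. The mean was 6.48-fold lower in PAP than in CHR and 3.16-fold higher in SCC than in PAP, with changes in limma of -2.37 ± 0.29 (adjusted p = 2.43e-05) and 1.16 ± 0.29 (adjusted p = 0.0263), and SCC vs CHR gave -1.21 ± 0.29 (adjusted p = 0.00596).

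Serping1, the inhibitor of the C1 proteases, was the second most abundant member per kb in irradiated skin, at 2406 ± 548 normalised reads per kb (SD, n = 6), and ranked 176 of 14427 genes. Its libraries held 3676 to 7034 normalised reads in CHR (median 6048), 83.9 to 942 in PAP (median 367) and 296 to 5466 in SCC (median 2922). The mean level in SCC was 50.4% of that in CHR. Papilloma was 12.4-fold below irradiated skin, a change of -3.64 ± 0.40 (limma adjusted p = 9.82e-06), and SCC vs PAP gave 2.32 ± 0.40 (adjusted p = 0.01). The lower level in SCC than in CHR, -1.33 ± 0.40 (adjusted p = 0.0192), was -0.87 and lost significance without mouse 10, whose carcinoma held 296 normalised reads while the other 5 held 1595 or more.

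Cd55, a membrane protein that protects host cells, varied least among CHR libraries, from 519 to 677 normalised reads (median 653). It held 46.1 to 256 in PAP (median 148) and 80.7 to 771 in SCC (median 176). The fall from CHR to PAP was seen in 6 of 6 mice (-1.71 ± 0.32 on the log2(value + 1) scale, limma adjusted p = 0.000619). From PAP to SCC the values went up in 4 mice and down in mice 3 and 9, and the change of 0.42 ± 0.32 did not pass the threshold (adjusted p = 0.459). SCC was lower than CHR in 5 of 6 mice (-1.29 ± 0.32, adjusted p = 0.00666), with mouse 7 as the exception. Of the 76-base windows of the Cd55 transcript, 10.4% also occur in other genes, mainly in the copy Cd55b, which has no row under this symbol.

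C3ar1, the receptor for C3a, held 1359 to 3253 normalised reads in CHR (median 2178), 66.1 to 359 in PAP (median 227) and 309.9 to 1942 in SCC (median 732). CHR and PAP were fully apart, and in each mouse SCC lay between them. Among the 9 genes it had the smallest adjusted p in PAP vs CHR (-3.00 ± 0.25, limma adjusted p = 1.66e-06) and in SCC vs PAP (1.59 ± 0.25, adjusted p = 0.00917), and SCC vs CHR gave -1.41 ± 0.25 (adjusted p = 0.000966).

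C5ar1, the receptor for C5a, held 206 to 731 normalised reads in CHR (median 610.3), 21.9 to 155 in PAP (median 55.8) and 67.2 to 565 in SCC (median 210.3). Its mean was 7.89-fold lower in PAP than in CHR and 3.67-fold higher in SCC than in PAP. The changes in limma were -2.19 ± 0.33 (adjusted p = 0.000133), 1.21 ± 0.33 (adjusted p = 0.0383) and, for SCC vs CHR, -0.99 ± 0.33 (adjusted p = 0.0328). The last lost significance without mouse 3 (-0.94), mouse 9 (-0.87) or mouse 10 (-0.71), and the rise in SCC vs PAP without mouse 9 (1.21), as well as without mouse 3, 7 or 8 (1.23, 0.85 and 1.23). The change of the receptors C3ar1 and C5ar1 from CHR to PAP differed by -0.29 ± 0.96 on the read scale, with C3ar1 falling more in 3 of 6 mice (exact permutation p = 0.5, adjusted p = 0.562). On the log2(value + 1) scale C3ar1 fell more in 6 of 6 mice, by -0.81 ± 0.60 (exact permutation p = 0.0312, adjusted p = 0.141).

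**Figure D2:**
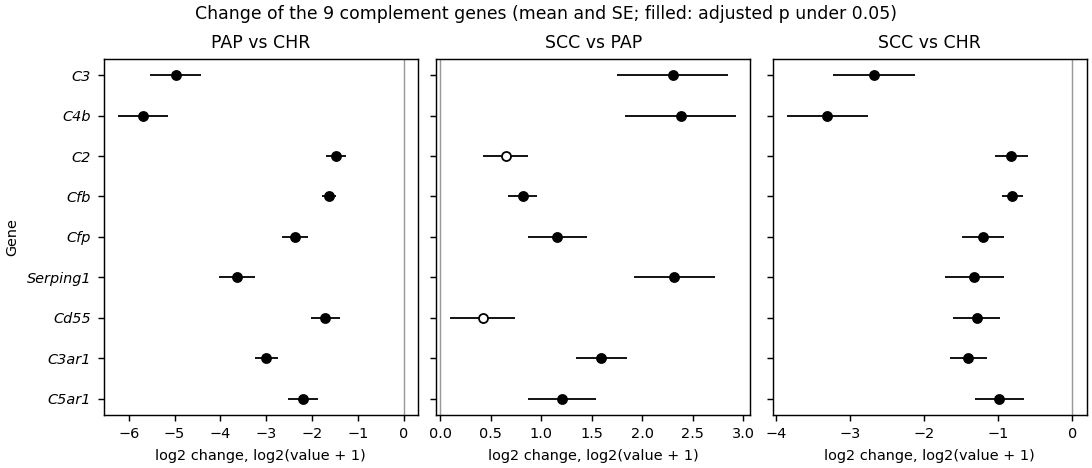
Change of each complement gene on the log2(value + 1) scale in the 3 comparisons, with points for the fitted change and bars for its SE (limma, 18 libraries). Filled points have an adjusted p under 0.05. All 9 genes lie below 0 in PAP vs CHR and SCC vs CHR, C4b and C3 furthest, and in SCC vs PAP all lie above 0, with C2 and Cd55 as the open points.

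The groups overlapped more between papilloma and carcinoma than between papilloma and irradiated skin, although the 7 genes called in SCC vs PAP rose in 6 of 6 mice each. Every PAP library was lower than every CHR library for 8 of 9 genes (19.3% of all genes), every SCC library was lower than every CHR library for C3 and C4b alone (11.3% of all genes), and for 0 of 9 genes was every SCC library higher than every PAP library (0.255% of all genes). The carcinoma of mouse 7 was the highest of the 6 for 9 of 9 genes and that of mouse 10 the lowest for 8 of 9. In limma, 0 of 14521 genes passed the threshold in SCC vs PAP without mouse 7 or without mouse 8, and so 0 of the 9, of which 8 and 7 had an unadjusted p under 0.05. Without mouse 3 the count was 3 of 9 (8 at an unadjusted p under 0.05), where 3.01% of all genes rose. With only PAP and SCC in the fit it was 0 of 14521 genes and 0 of the 9 (8 at an unadjusted p under 0.05), while the direction was upward for all 9 genes in each of these fits. Without mouse 7, the change of C3 was 1.77, of C4b 1.95, of Serping1 2.09 and of C3ar1 1.36 on the log2(value + 1) scale.

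Markers of some other cells moved with the complement genes. Of 12 macrophage markers, such as Adgre1, Csf1r and Mrc1, 10 fell in PAP vs CHR (29.3% of all genes). The changes of the 12 there ranged from -4.48 to 0.63 on the log2(value + 1) scale. In SCC vs PAP 9 of these markers rose (8.75% of all genes), and in SCC vs CHR 8 were lower (22.7% of all genes). Their summed level was 44812 to 70320.2 normalised reads in CHR, 5094 to 11813 in PAP and 9635 to 64146 in SCC, with mouse 7 highest and mouse 10 lowest in SCC, as for the complement genes. Of 10 fibroblast markers, 9 fell in PAP vs CHR, 4 rose in SCC vs PAP and 3 were lower in SCC vs CHR (29.3%, 8.75% and 22.7% of all genes). Their sum was 153381 to 332007 in CHR, 5299 to 171742 in PAP and 19316 to 517473 in SCC. In papilloma 7 of 8 T cell, 7 of 8 mast cell, 7 of 8 adipocyte and 8 of 8 skeletal muscle markers also fell (29.3% of all genes). Of 10 endothelial markers 6 fell and 1 rose, while the 2 of 8 neutrophil markers that fell were below the share of all genes. Of 10 keratinocyte markers 7 rose (23.3% of all genes) and 1 fell. In SCC vs PAP, 7 of 8 skeletal muscle, 5 of 10 endothelial and 3 of 8 mast cell markers rose (8.75% of all genes). Of the T cell, adipocyte and neutrophil markers, 0 of 8 each rose there. The skeletal muscle sum was 379099 to 568330 in CHR, 159 to 28145 in PAP and 384 to 188430 in SCC, with mouse 10 lowest in both tumour groups. No list had a marker at 3 reads or fewer in all libraries of a group. The part of these cells in the complement results was not tested.

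The receptors were set against the summed macrophage markers of the same library. In each of the 6 mice, C3ar1 fell more than the macrophage sum from CHR to PAP, by -0.87 ± 0.39 on the log2 scale (SD, n = 6, exact two-sided permutation p = 0.0312, adjusted p = 0.0938 over 6 tests). It rose more than that sum from PAP to SCC in 6 of 6 mice, by 0.81 ± 0.45 (exact permutation p = 0.0312, adjusted p = 0.0938). Neither passed the threshold after adjustment, and in SCC vs CHR the ratio differed by -0.06 ± 0.35 (exact permutation p = 0.719). The ratio of C5ar1 to the macrophage sum varied more between mice, with differences of -0.57 ± 1.05 in PAP vs CHR (exact permutation p = 0.281) and 0.79 ± 0.87 in SCC vs PAP (exact permutation p = 0.0625, adjusted p = 0.125). On the log2(value + 1) scale these were 0.26, of the opposite sign, and 0.15, while those of C3ar1 were -0.54 and 0.54, in 6 of 6 mice each. A sum mostly follows its most abundant markers. The median macrophage marker changed by -3.02 from CHR to PAP and by 1.43 from PAP to SCC on the log2(value + 1) scale. The limma changes of C3ar1 on that scale, given above, were close to these. Its differences from the sum therefore need not hold against a typical macrophage marker.

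**Figure D3:**
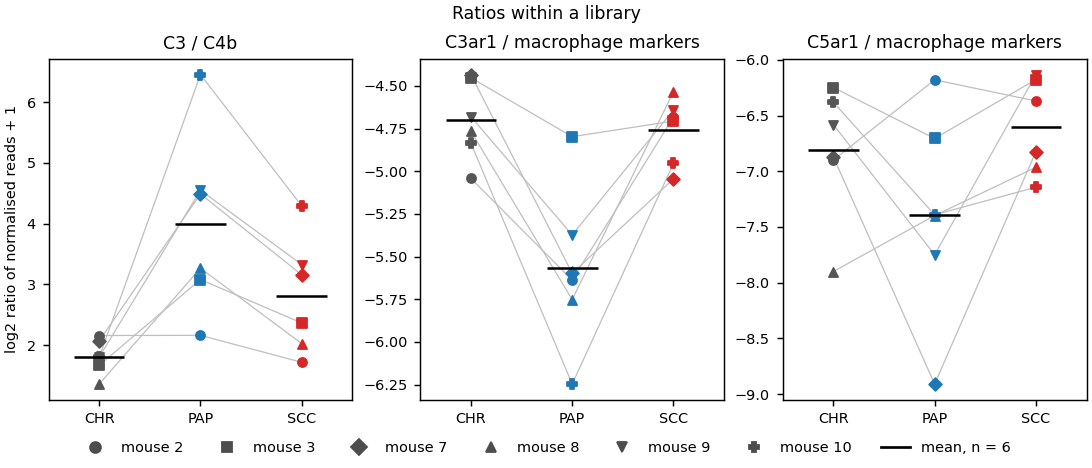
Log2 ratio of C3 to C4b, of C3ar1 to the summed macrophage markers and of C5ar1 to the same sum, in normalised reads, for CHR, PAP and SCC of each mouse (lines join samples of a mouse). The C3 to C4b ratio is higher in PAP than in CHR in 6 of 6 mice, the C3ar1 ratio is lower in PAP than in CHR in 6 of 6 mice, and the C5ar1 ratio crosses between mice.

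As a description without a test, chosen after the values were seen, the other members were set against the same sums. From CHR to PAP, C4b fell more than the macrophage sum in 6 of 6 mice, with a mean log2 difference of -4.82, as did C3 (-2.63), Serping1 (-1.40) and Cfb (-1.21). Cfp differed from that sum by -0.24 (lower in 5 of 6 mice), C2 by 0.48 (higher in 4 of 6 mice) and Cd55 by 0.36 (higher in 3 of 6 mice). Relative to the fibroblast sum, C4b (-5.23), C3 (-3.04), Serping1 (-1.81) and Cfb (-1.62) also fell in 6 of 6 mice and Cfp (-0.65) in 5 of 6, whereas C2 (0.07) and Cd55 (-0.05) were higher in 3 mice and lower in 3. The fibroblast sum fell less than a typical marker of its list. Its mean was 241174 normalised reads in CHR and 77448 in PAP, while the median marker changed by -2.74 on the log2(value + 1) scale. Differences from the sums therefore need not hold against a typical marker.

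The rest of the pathway was taken from a list of 41 genes, also chosen with earlier results known, of which 29 were measured. In PAP vs CHR 23 of the 29 fell and 1 rose, while 29.3% of all genes tested fell and 23.3% rose. In SCC vs PAP 8 rose and 0 fell (8.75% and 1.1% of all genes), and in SCC vs CHR 19 were lower and 1 was higher (22.7% and 15.8% of all genes). The median changes were -1.44, 0.56 and -0.86 on the log2(value + 1) scale. After quantile normalisation, which moved the median of all genes in PAP vs CHR from 0.00 to 0.16, 21 fell and 6 rose in that comparison (22.1% and 36.8% of all genes).

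The C1q chains C1qa, C1qb and C1qc, the recognition unit of the classical pathway, fell together in papilloma, by 2.37, 2.50 and 2.63, and rose by 1.68, 1.68 and 1.69 in SCC vs PAP (limma adjusted p = 0.01, 0.00917 and 0.00917). C1qb, for example, held 1762 to 3517 normalised reads in CHR, 105 to 803 in PAP and 597 to 3866 in SCC, so that SCC overlapped with both other groups. Cfd, the factor D protease that cuts factor B and that is abundant in fat cells, changed most of the 29 in PAP vs CHR, by -6.42 ± 0.52 (adjusted p = 1.29e-06). It held 1899 to 7074 normalised reads in CHR, 0 to 121 in PAP and 0 to 927 in SCC. Its change of 1.70 ± 0.52 in SCC vs PAP missed the threshold (adjusted p = 0.0546), and it was lower in SCC than in CHR (-4.71 ± 0.52, adjusted p = 4.18e-05).

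Itgb2 and Itgax, which encode the chains of complement receptor 4 on myeloid cells, fell by 3.78 and 3.39 in papilloma (adjusted p = 1.15e-05 and 3.39e-05). Itgb2 rose in SCC vs PAP (1.77 ± 0.42, adjusted p = 0.0221), while Itgax at 1.44 ± 0.43 missed the threshold (adjusted p = 0.0539). Both were lower in SCC than in CHR, by -2.00 and -1.95. Hc, the mouse gene for C5, fell in papilloma (-1.83 ± 0.38, adjusted p = 0.00134) and did not pass the threshold in SCC vs PAP (0.89 ± 0.38, adjusted p = 0.164) or in SCC vs CHR (-0.94 ± 0.38, adjusted p = 0.0651). C1qbp, whose product binds C1q but works mainly in mitochondria, was the 1 gene that rose, from 429 to 614 normalised reads in CHR to 871 to 1173 in PAP (0.88 ± 0.18, adjusted p = 0.00118).

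**Figure D4:**
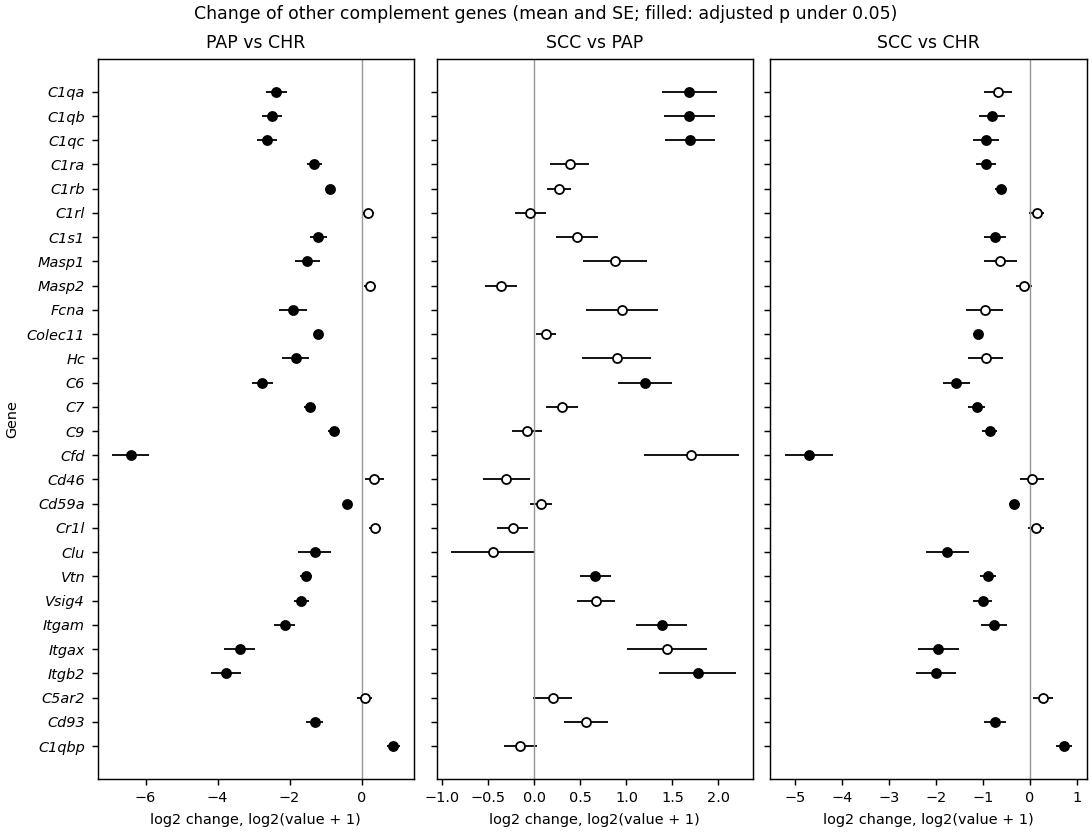
Change of other complement genes measured, on the log2(value + 1) scale in the 3 comparisons, with the SE as bars (limma, 18 libraries) and filled points for an adjusted p under 0.05. Most points lie below 0 in PAP vs CHR, with Cfd lowest at -6.42, C1qbp is the filled point above 0, and fewer genes are filled in SCC vs PAP.

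Within groups, the 9 genes varied together to different degrees. After the mean of each group was subtracted, Pearson's r between members over the 18 libraries ranged from 0.14 for C2 and C5ar1 to 0.90 for C3 and Serping1 and for Cfb and C3ar1 (36 pairs, median 0.71). The libraries are shared by all pairs, so this is a description. Among all genes, those near each member were Ggt5 and Bin1 for C3 (both 0.95), Pi16, Gprc5c and Ace for C4b (0.94 to 0.97), Gpr176, Pear1 and Pdgfra for Serping1 (0.95 to 0.96), and Gpr146, Pnpla7 and Hfe for Cd55 (0.89 to 0.91). Clec4a3, Vav1 and Plcl2 were nearest to Cfb, Wfdc17, Cd33 and P2ry6 to Cfp, and Tlr7, Gramd1b and Fli1 to C3ar1 (0.97 to 0.98 for the last 3). Chst11, Clec4d and Bcat2 were nearest to C5ar1 (0.87 to 0.91) and Bcl2l14, Ly75 and Trim30d to C2 (0.88 to 0.92).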

How the data were processed

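The authors aligned 76-base paired reads to mm10 with MOSAIK, counted them per gene with HTSeq, scaled the counts and applied a variance-stabilising transformation. The deposited values are a rounded score on the linear scale of that transformation, in which 0 reads appear as 39. Methods also mention scaling of batch medians, and batches were not given for these libraries. Groups and mouse numbers came from the sample titles. Of 14542 entries, 21 had a number as name (at most 0.236% of reads) and were left out.

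The transformation was inverted to recover reads. Of all values, 99.2% came out whole, with size factors of 0.834 to 1.18 (error of at most 0.137% when tested on simulated data). No library was a copy, since the 153 pairs of libraries shared at most 2.24% of their values.

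Tests used limma 3.58.1 in R 4.3.3 on log2(value + 1), with 3 groups, the mouse as block and all 18 libraries. This fit recovered 99% of 200 genes given 2-fold changes in a simulated PAP vs CHR comparison. The simulated spread was fixed in advance and not estimated from these libraries, and low genes were left unchanged. The simulation therefore does not show the power for the 9 genes. The log2(value + 1) scale understates changes of low genes. The numbers pair the samples because 1 mouse gave all 3, although same-mouse deviations correlated by only -0.24 to 0.51. Exact two-sided sign-flip permutation tests compared related genes (9 tests) and receptors with the macrophage sum (6 tests).

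The 9 genes, the list of 41 others and the cell type lists were chosen with earlier results of these data known. Named beside the members were the 4 other complement genes with the largest called change in each comparison, the C1q chains, Hc and Cfd, the copies C4a and Cd55b, and the 3 genes most correlated with each member, of which 1 gene is not reported here by name. Alternatives were no block, a random mouse effect, a pseudocount of 10, limma-voom on recovered reads, quantile normalisation, a filter on low means, only the groups compared, sample weights and leaving out each mouse. Folds without single libraries and the shares of all genes called under the alternatives were added after seeing the data.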

Additional observations from a re-analysis of the deposited data

Results flagged for a closer look

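In 27 sets of 6 libraries (9 genes in 3 groups), 5 held a value far above the others by Dixon's test on untransformed normalised reads. The rate of about 1 in 20 sets for this test holds for normally distributed, independent sets. These sets share libraries and can be skewed, so 5 of 27 cannot be weighed against that rate. Of the 5 values, 3 were the carcinoma of mouse 7, with 15177 normalised reads of C3 (next highest 5318), 1596 of Cfp (next 642) and 771 of Cd55 (next 302). In papilloma, C2 held 391 normalised reads in mouse 9 (next 133) and C4b held 353 in mouse 2 (next 57.5). The carcinoma of mouse 7 also had the highest macrophage sum of its group. The papilloma of mouse 2 had the highest skeletal muscle sum of its group, 28145 normalised reads, where the group median was 699. In carcinoma the skeletal muscle sum was highest in mouse 2 and not in mouse 7. The link of these sums to the flagged values was not tested.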

How the results depend on the processing

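All 9 genes kept their direction under the 15 alternatives, and in PAP vs CHR 134 of 134 values also kept their side of the threshold, as did 122 of 134 in SCC vs CHR and 95 of 134 in SCC vs PAP (37 lost the call and 2 gained it). The lower quartile filter removed Cfb. In SCC vs PAP the count of members called was 0 by limma-voom on recovered reads without the block (7 at an unadjusted p under 0.05) and 0 with only the groups compared (8), and the count of the other 29 complement genes was 0 in both (13 and 16), as it was for all 14521 genes. Leaving out each mouse, the members called ranged from 0 to 7 and the others from 0 to 13 in SCC vs PAP, where 0% to 13.7% of all genes were called. Of the others, 0 were called without mouse 7 or mouse 8 (0% of all genes) and 4 without mouse 3 (3.24%). Without mouse 9 or mouse 10 the others called were 13 (11.1% and 13.7% of all genes). Sample weights gave 16 of the others in SCC vs PAP, where 20.3% of all genes were called. With means above the lower quartile 15 and 12 of 16 tested were called in PAP vs CHR and SCC vs CHR (51.6% and 37.4% of the 10889 genes kept). Without the replicate block, limma called 9, 6 and 7 members in PAP vs CHR, SCC vs PAP and SCC vs CHR (51.5%, 5.58% and 36.5% of all genes), and limma-voom with the block called 9, 5 and 6 (53.4%, 5.97% and 36.6%). Without pairing by mouse, the exact permutation tests passed after adjustment for C3 against C4b in PAP vs CHR (2.19, adjusted p = 0.0195). They also passed for C3ar1 against the macrophage sum in PAP vs CHR (-0.87, adjusted p = 0.0195) and SCC vs PAP (0.81, adjusted p = 0.0195). The mean differences were the same as with pairing. This unpaired form ignores that 1 mouse gave all 3 tissues, and it allows a smaller p than the 0.0312 of the paired test. On the log2(value + 1) scale and with a pseudocount of 10, C3 against C4b in PAP vs CHR was 0.71 and 1.65 in 5 of 6 mice. C5ar1 against the macrophage sum in PAP vs CHR was 0.26 on the log2(value + 1) scale and -0.36 with a pseudocount of 10. The cause of these changes was not tested. Genes with few reads, such as Cfb in papilloma, are limited by depth.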
